A study of Mus musculus with 24 samples.

Results

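The STAT genes encode transcription factors that sit in the cytoplasm until a cytokine binds its receptor. Receptor-bound Janus kinases (JAKs) then phosphorylate them, and the phosphorylated proteins pair, enter the nucleus and switch on target genes. The members described here were fixed by name as Stat2, Stat3, Stat4, Stat5a, Stat5b and Stat6 and found through the GENCODE symbols of the Ensembl identifiers, which gave 6 of the 39017 genes of the count table. All 6 passed the filter on low counts and were among the 16248 genes tested. In skin the family is known for interferon responses (Stat2), keratinocyte repair and inflammation (Stat3), T-cell and natural killer responses to interleukin-12 (Stat4), growth hormone, prolactin and interleukin-2 responses (Stat5a and Stat5b) and interleukin-4 and interleukin-13 responses (Stat6).

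RNA of dorsal skin was sequenced from female C3H/HeJ mice, a strain that can develop alopecia areata (AA), an autoimmune hair loss. The 4 groups of 6 libraries (A to F) were healthy untreated mice, untreated mice with AA, mice with AA that ate daily chow servings of a JAK1 inhibitor at about 100 mg/kg for 4 weeks (systemic JAK1i), and mice with AA examined 8 weeks after that same dosing ended (8w off Tx). AA had been induced by skin grafting. By the study's methods the systemic JAK1i biopsies were taken from the 6 mice that were later followed off treatment. The sample names place systemic JAK1i at week 4 and the other 3 groups at week 12, and the labels give an age of about 30 weeks at termination, so systemic JAK1i skin was sampled earlier and its week cannot be told apart from its treatment. No source used here says which library of one group belongs to which mouse of the other, and the fit treated the 24 libraries as independent.

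Libraries held 3444193 to 11233020 counted reads, with a median of 5517357. The RNA was of low integrity, and fragmentation was left out of the library preparation for that reason. Some libraries stood apart within their group. Healthy libraries A and E had summed skeletal muscle markers of 295 and 237 CPM (counts scaled to library size) against 3160 to 18200 in the other 4, and 8w off Tx libraries A and E had summed hair matrix markers of 47.7 and 28.3 CPM against 578 to 1300 in the other 4. Keratinocyte markers were abundant in every library, at 6200 to 15200 CPM in sum (over 6 of the 7 listed genes).

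Stat2 lies on chromosome 10 (chr10:128270559-128292849, plus strand, GRCm38), where Stat6 also lies (chr10:127642986-127660957, plus strand). Stat4 is on chromosome 1 (chr1:51987148-52107189, plus strand). Stat5b (chr11:100780731-100850724, minus strand), Stat5a (chr11:100859351-100885169, plus strand) and Stat3 (chr11:100885098-100939540, minus strand) form a cluster on chromosome 11, in which the ends of Stat3 and Stat5a overlap by 72 bases on opposite strands. Stat6 overlaps Nab2 by 40 bases on the opposite strand. The library kit keeps strand, but no source used here gives the strand setting of the counting, so reads from these short overlaps cannot be assigned to one gene with certainty. Stat4 overlaps Gm3940 by 432 bases on the opposite strand and Gm28177 by 29929 bases on the same strand. Strand cannot separate Gm28177 from Stat4, and Gm28177 is not in the count table. Its part in the few Stat4 reads was not tested. Stat5a and Stat5b are close paralogues. Of the 4175 distinct 76-base stretches in the coding transcripts of Stat5a, 381 (9.13%) were identical in Stat5b, and the same stretches made up 6.98% of the 5462 of Stat5b, so a small share of their reads cannot be told apart. No other pair of members shared a stretch of this length.

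The promoter of Stat2 is shown because Stat2 was the member with the largest fold changes between the groups. A total of 9 RefSeq promoter windows (GRCm38.p6, 250 bases before and 50 after the start) matched the 6 members. Each was searched on both strands for GAAANNGAA, the core of the interferon-stimulated response element bound by the STAT2-containing complex, and for TTCNNNGAA, the palindrome bound by STAT dimers. In the 250 bases before the RefSeq start of Stat2 (chr10:128270248-128270497, plus strand), the capitals mark the single match to the response element, which reads in reverse complement on this strand and begins 221 bases before the start.
Stat2: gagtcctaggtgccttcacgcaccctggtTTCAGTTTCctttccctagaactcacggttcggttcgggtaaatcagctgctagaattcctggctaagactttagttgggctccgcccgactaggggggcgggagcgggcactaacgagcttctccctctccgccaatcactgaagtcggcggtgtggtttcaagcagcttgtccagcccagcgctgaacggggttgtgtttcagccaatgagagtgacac
A second match, GAAAGTGAA, lay 97 bases before the downstream of the 2 Stat4 starts, at chr1:52008143-52008151. The windows of Stat3, Stat5a, Stat5b and Stat6 held no match to the response element, and none of the 9 windows matched the palindrome. Of all 32851 windows 8.56% held GAAANNGAA and 8.3% held TTCNNNGAA, and a match of these letters is a description of the sequence only.

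Compared per length within each library, in TPM (reads scaled to transcript length and library size), Stat3 was the most abundant member in all 4 groups. It made up 50.9% ± 1.21 (SD, n = 6) of the summed STAT TPM in healthy skin, 51.5% ± 3.42 in AA, 50.2% ± 1.66 with systemic JAK1i and 53.8% ± 2.59 at 8w off Tx. Stat6 followed in healthy skin at 21.7% ± 0.953. Stat5b and Stat5a, at 10.8% ± 1.35 and 10.7% ± 1.02 there, did not differ beyond their spread. Stat2 held 5.72% ± 0.728 of the family in healthy skin, and Stat4 held 0.169% ± 0.0863.

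The order of the lower members changed with the group. Stat2 took 18% ± 4.1 of the summed STAT TPM in AA and 16.5% ± 4.45 at 8w off Tx, level with Stat6 at 17.6% ± 1.56 and 15.9% ± 1.1 in the same groups. With systemic JAK1i the share of Stat2 was 4.74% ± 0.549, and its 6 libraries, between 4.32% and 5.81%, lay below all libraries of AA (11.2% to 22.8%) and 8w off Tx (9.29% to 21.7%). Shares within the family do not depend on how libraries are scaled to each other.

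**Figure D1:**
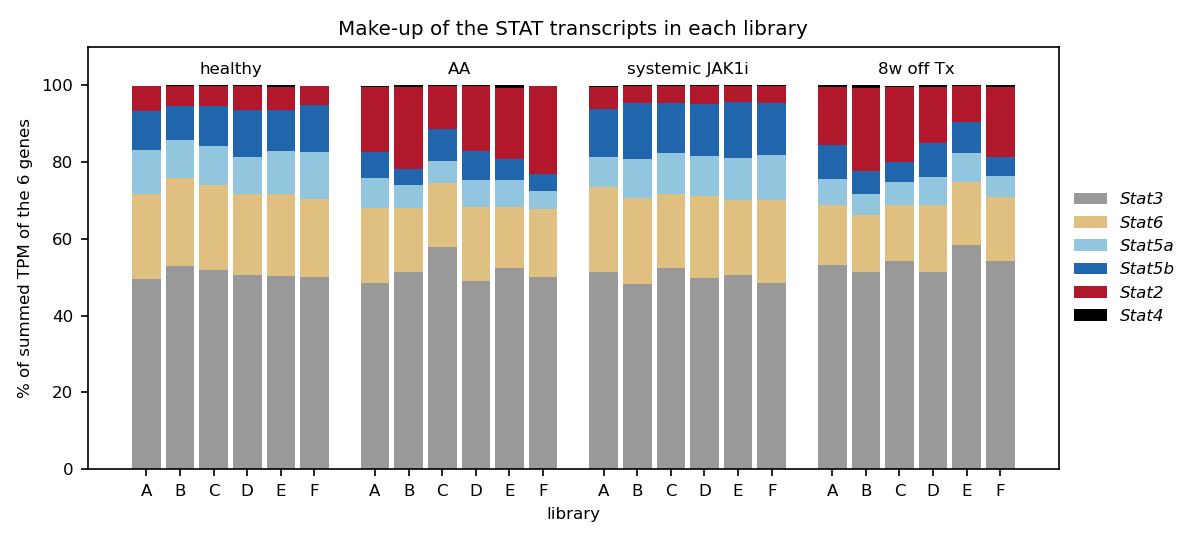
Share of each STAT gene (stacked colours, percent of the summed TPM of the 6 genes, y axis) in each of the 24 libraries (x axis, A to F within each group). The grey Stat3 segment is about as tall in all 4 groups, while the red Stat2 segment averages 18% in AA and 16.5% at 8w off Tx against 5.72% in healthy skin and 4.74% with systemic JAK1i.

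The comparison of AA with healthy skin asks which STAT transcripts differ in the disease. In bulk skin, fewer cells of a type and less RNA per cell cannot be told apart. Stat2, Stat3 and Stat4 were higher in AA, Stat5b was lower, and Stat5a and Stat6 did not pass the test (edgeR quasi-likelihood test, Benjamini-Hochberg adjusted p under 0.05 over all genes tested, as for all adjusted p-values here). Over all genes 20.9% were called higher and 19.3% lower in this comparison. The members' median was 0.31 on the log2 scale, beside 0 for all genes. On TPM compared without centring, where the median of all genes was -0.29, Stat2 alone was called.

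Stat2, the STAT of type I and type III interferon signalling, stood at 37.4 CPM in the lowest, 45.5 in the median and 51.9 in the highest healthy library, where CPM are scaled by TMM between libraries. In AA the lowest, median and highest were 107, 213 and 245 CPM, so that every AA library lay above every healthy one. The log2 fold change was 2.15 ± 0.21 (SE), a 4.42-fold difference (adjusted p = 2.84e-07). The spread between AA libraries was also wider, with an SD of 51.1 CPM against 5.04 CPM in healthy skin. Hair matrix markers moved the same way, with all 7 called higher and summed levels of 434 to 1760 CPM in AA against 8.08 to 71.5 CPM in healthy skin, and their part in the Stat2 result was not tested.

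Stat3, which carries signals of interleukin-6 family cytokines, ranged from 182 to 229 CPM in healthy skin around a median of 197. AA libraries ranged from 243 to 357 CPM around a median of 291, again with no overlap. The difference was smaller than for Stat2, at a log2 fold change of 0.53 ± 0.09 or 1.45-fold (adjusted p = 0.000118). Of 6 keratinocyte markers 3 were called higher and none lower, with sums of 6200 to 15200 CPM in healthy skin and 7430 to 14500 CPM in AA. Their part in the Stat3 result was not tested.

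Stat4, which answers interleukin-12 in T cells and natural killer cells, was near the limit of detection. Healthy libraries held 2 to 8 reads of it each and AA libraries 5 to 32. In CPM the healthy range was 0.396 to 1.99 (median 0.707) and the AA range 1.22 to 6.95 (median 2.51), so the groups overlapped. Its log2 fold change was 1.78 ± 0.53 (adjusted p = 0.00757), with a 95% interval of 0.68 to 2.88. Markers of T cells moved with it: the summed level of all 10 T cell markers was 22.1 to 46.6 CPM in healthy skin (median 36.4) and 35.7 to 146 CPM in AA (median 85.7), and 5 of the 10 were called higher. Of these markers Cd8b1 had no read in any healthy library. Their part in the Stat4 result was not tested.

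Stat5b, a main transducer of growth hormone, went the other way. It ranged from 70.4 to 102 CPM in healthy skin (median 76.5) and from 55.3 to 76.1 CPM in AA (median 62.9). The log2 fold change was -0.31 ± 0.11 (adjusted p = 0.0221), and the ranges overlapped. The call was lost without AA library B (adjusted p = 0.0537), AA library F (0.0535) or healthy library F (0.0694). Its paralogue Stat5a, the prolactin-responsive member, had a log2 fold change of -0.20 with a 95% interval of -0.42 to 0.02 (adjusted p = 0.137). Whether the pair differ from each other in their response was not tested, and the ratio of their TPM (Stat5b over Stat5a) ranged from 0.877 to 1.28 in healthy skin and from 0.691 to 1.47 in AA.

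Markers of endothelial cells and adipocytes were lower in AA alongside Stat5b. All 5 endothelial markers were called lower, with summed levels of 122 to 272 CPM in healthy skin and 38.6 to 111 CPM in AA, and all 6 adipocyte markers were called lower, with sums of 424 to 2100 and 161 to 843 CPM. Also called lower in AA were 4 of 6 dendritic and Langerhans, 3 of 5 sebaceous and 2 of 6 fibroblast markers. Of these lists, 1 dendritic and Langerhans marker and 1 sebaceous marker were called higher. The part of these cells in the Stat5b result was not tested. Stat6, at 109 to 135 CPM in healthy skin and 113 to 144 CPM in AA, had a log2 fold change of 0.09 with a 95% interval of -0.04 to 0.23.

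**Figure D2:**
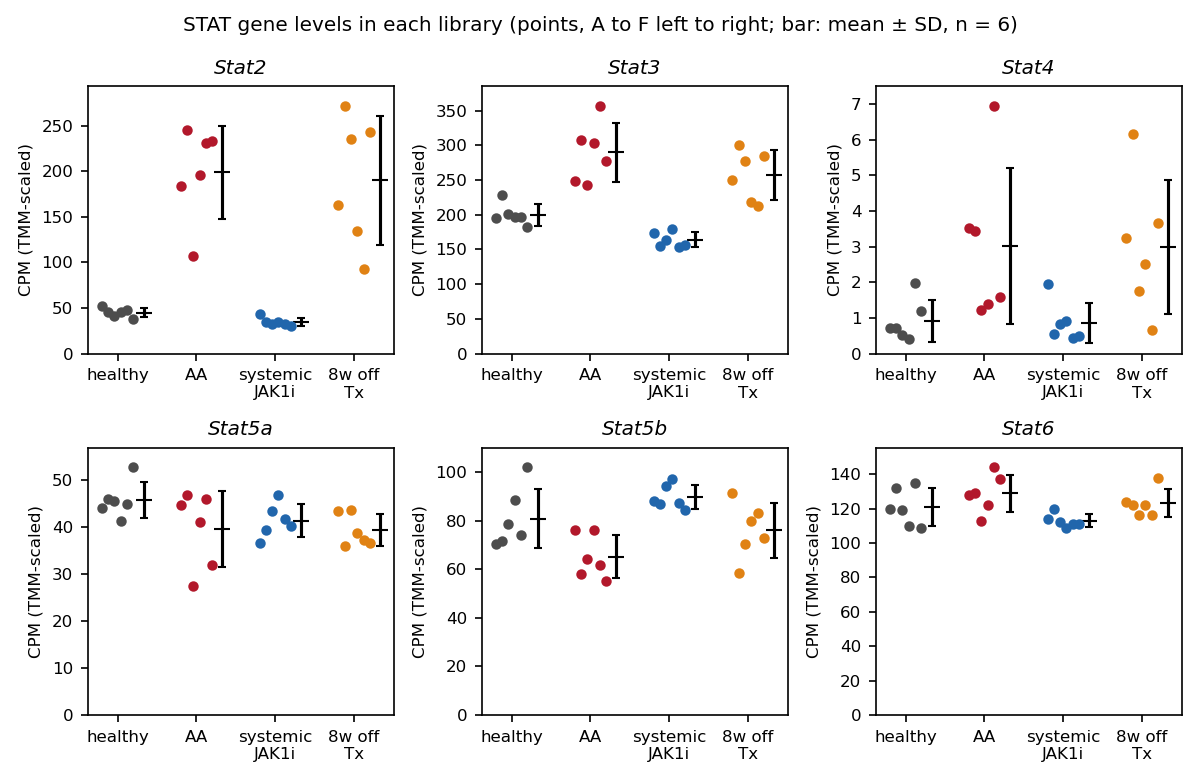
Level of each STAT gene (CPM scaled by TMM, y axis from 0, a different scale in each panel) in the 6 libraries of each group, with the mean ± SD beside the points. Stat2 shows a complete gap between healthy or systemic JAK1i libraries (30.1 to 51.9 CPM) and AA or 8w off Tx libraries (92.7 to 272 CPM), Stat3 a smaller shift the same way, and Stat5b its lowest mean in AA (65.2 CPM). On uncentred TPM the sign of the difference turned in 4 of the 6 comparisons for Stat3 and in 5 for Stat6, called or not.

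The comparison of systemic JAK1i with AA asks how skin with the disease differed after dosing. Stat2, Stat3, Stat4 and Stat6 were lower and Stat5b was higher with systemic JAK1i, and Stat5a did not pass the test. Among all genes 24.8% were called lower and 22.9% higher. The members' median log2 fold change was -0.51, beside -0.01 for all genes. This comparison shares the AA libraries with the one above, so opposite signs in the 2 are not independent.

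Stat2 ranged from 30.1 to 43.3 CPM with systemic JAK1i (median 33.9), below the lowest AA library at 107 CPM. The log2 fold change was -2.52 ± 0.21, so that AA was 5.73-fold higher (adjusted p = 4.05e-08). All 7 hair matrix markers were called lower in this comparison too, with a median of -5.57 on the log2 scale, and their part in the result was not tested. By p Stat2 ranked 14 of the 16248 genes in this comparison. Stat3 ranged from 154 to 180 CPM (median 160), also below the lowest AA library, and its log2 fold change was -0.82 ± 0.09 (adjusted p = 9.26e-07). On TPM compared without centring, the log2 fold change of Stat3 was 0.03, where the median of all genes was 0.65, which leaves -0.62 relative to that median. Of 6 keratinocyte markers 3 were called lower and none higher, with sums of 6360 to 8400 CPM with systemic JAK1i. Their part in the Stat3 result was not tested.

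Stat4 ranged from 0.428 to 1.95 CPM with systemic JAK1i, or 3 to 13 reads, and differed from AA by -1.80 ± 0.51 on the log2 scale (adjusted p = 0.00425). T cell markers were lower with it, at a summed 20 to 47.8 CPM (median 29.5), with 8 of 10 called lower, and their part in the result was not tested. Stat5b ranged from 84.5 to 97.3 CPM (median 87.9), above all AA libraries, and its log2 fold change was 0.46 ± 0.11 (adjusted p = 0.001). All 5 endothelial and all 6 adipocyte markers were called higher in the same comparison, with summed levels of 177 to 212 and 829 to 1550 CPM, as were 3 of 6 fibroblast, 3 of 5 sebaceous and 2 of 8 skeletal muscle markers. Fibroblast sums were 1940 to 8580 CPM in AA and 4920 to 9400 CPM with systemic JAK1i, sebaceous sums 625 to 1040 and 928 to 1730 CPM, and muscle sums 5400 to 14500 and 13900 to 17700 CPM. The part of these cells was not tested here either.

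Stat6 was lower by a small amount, at 109 to 120 CPM with systemic JAK1i (median 112) against 113 to 144 CPM in AA (median 129). Its log2 fold change was -0.19 ± 0.07 (adjusted p = 0.0185), and the call was lost without AA library E (adjusted p = 0.0555). On uncentred TPM its log2 fold change was 0.32, or -0.33 relative to the median of all genes. Stat5a had a log2 fold change of 0.06, with a 95% interval of -0.16 to 0.28, and on uncentred TPM it was called higher (0.76, limma adjusted p = 0.0213). The TPM ratio of Stat5b to Stat5a was 1.15 to 1.54 with systemic JAK1i, with a median of 1.32 against 0.912 in AA.

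Systemic JAK1i and healthy skin were compared to see whether treated skin stood at the healthy level. None of the 6 members passed the edgeR test, with 1 (Stat3) at an unadjusted p under 0.05. DESeq2 called none and limma-voom called 1, Stat3. Few genes differed at all, with 0.511% called higher and 0.535% lower. The intervals show what could have been missed. The 95% interval of the log2 fold change was -0.81 to 0.06 for Stat2, -0.49 to -0.10 for Stat3, -0.36 to 0.07 for Stat5a, -0.06 to 0.37 for Stat5b and -0.23 to 0.04 for Stat6. For Stat4 it was -1.23 to 1.18, so that a difference of 1 on the log2 scale in either direction was not excluded. Stat3 was the only member whose unadjusted interval lay wholly on one side of 0. All 6 systemic JAK1i libraries held less Stat3 than the lowest healthy library, 154 to 180 against 182 to 229 CPM, but its adjusted p was 0.115.

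After 8 weeks off treatment, Stat2, Stat3 and Stat4 were higher than with systemic JAK1i, and edgeR called no member lower. DESeq2 called none lower either, limma-voom called Stat5b lower (log2 fold change -0.30, adjusted p = 0.00754), and limma on uncentred TPM called Stat5a, Stat5b and Stat6 lower and neither Stat3 nor Stat4. Of all genes 19.4% were called higher and 16.6% lower. Stat2 libraries ranged from 92.7 to 272 CPM at 8w off Tx around a median of 199, all above the systemic JAK1i maximum of 43.3 CPM. The log2 fold change was 2.45 ± 0.21 or 5.47-fold (adjusted p = 1.15e-07). The 2 lowest Stat2 libraries at 8w off Tx were E and D, at 92.7 and 135 CPM. The SD of 70.3 CPM was the widest of Stat2 in the 4 groups. Libraries A and E, whose hair matrix markers were near the systemic JAK1i range of 14.8 to 58.4 CPM, held 163 and 92.7 CPM of Stat2, and without both the log2 fold change was 2.67 (adjusted p = 7.14e-09). All 7 hair matrix markers were called higher in this comparison, and their part in the result was not tested.

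Stat3 ranged from 213 to 300 CPM at 8w off Tx (median 264), above the systemic JAK1i maximum of 180 CPM, with a log2 fold change of 0.65 ± 0.09 (adjusted p = 2.3e-05). On uncentred TPM the value for Stat3 was -0.47, where the median of all genes was -1.16, leaving 0.69 relative to the median. Of 6 keratinocyte markers 1 was called higher and none lower, and their part in the Stat3 result was not tested. Stat4 ranged from 0.663 to 6.15 CPM and overlapped the systemic JAK1i range, with a log2 fold change of 1.77 ± 0.51 (adjusted p = 0.00706). T cell markers summed to 44.5 to 127 CPM at 8w off Tx (median 81.1), and 7 of the 10 were called higher and 1 lower. Stat5b had a log2 fold change of -0.24 (adjusted p = 0.0738), and it was called lower without 8w off Tx library A (adjusted p = 0.0304). Stat6 had a log2 fold change of 0.12, with a 95% interval of -0.01 to 0.26, and Stat5a of -0.08, with an interval of -0.30 to 0.14.

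Against AA itself, no member was called at 8w off Tx by edgeR, DESeq2 or limma-voom, with 1 of 6 (Stat5b) at an unadjusted p under 0.05. In that comparison 0.726% of genes were called higher and 0.64% lower. The log2 fold change of Stat2 was -0.07 with a 95% interval of -0.48 to 0.35, and that of Stat3 was -0.17 with an interval of -0.37 to 0.02. For Stat4 the interval ran from -0.96 to 0.89, for Stat5a from -0.24 to 0.20 and for Stat6 from -0.20 to 0.07. Stat5b had a log2 fold change of 0.22 (adjusted p = 0.27).

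Against healthy skin, Stat2, Stat3 and Stat4 were again higher at 8w off Tx, with 16.9% of all genes called higher and 15.7% lower. The log2 fold changes were 2.08 ± 0.21 for Stat2 (adjusted p = 5.91e-07), 0.36 ± 0.09 for Stat3 (adjusted p = 0.00526) and 1.75 ± 0.53 for Stat4 (adjusted p = 0.0115). On uncentred TPM, Stat5a, Stat5b and Stat6 were called lower and neither Stat3 nor Stat4 was called. The value for Stat3 there was -0.31, where the median of all genes was -0.80, leaving 0.49 relative to it. Stat5b, called lower in AA, had a log2 fold change here of -0.09 with a 95% interval of -0.31 to 0.13. All 5 endothelial and all 6 adipocyte markers were called lower in this comparison as in AA. None of 8 skeletal muscle markers was called, with sums of 237 to 18200 CPM in healthy skin and 6770 to 32000 CPM at 8w off Tx. Libraries A and E of 8w off Tx, with muscle sums of 29800 and 32000 CPM, held 91.5 and 83.2 CPM of Stat5b. Libraries B, C, D and F held 58.5 to 79.8 CPM of it. The part of these cells in the Stat5b result was not tested. Without 8w off Tx libraries A and E the log2 fold changes were 2.29 for Stat2, 0.42 for Stat3 and 1.96 for Stat4, and without healthy libraries A and E they were 2.17, 0.35 and 2.05, all still called.

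**Figure D3:**
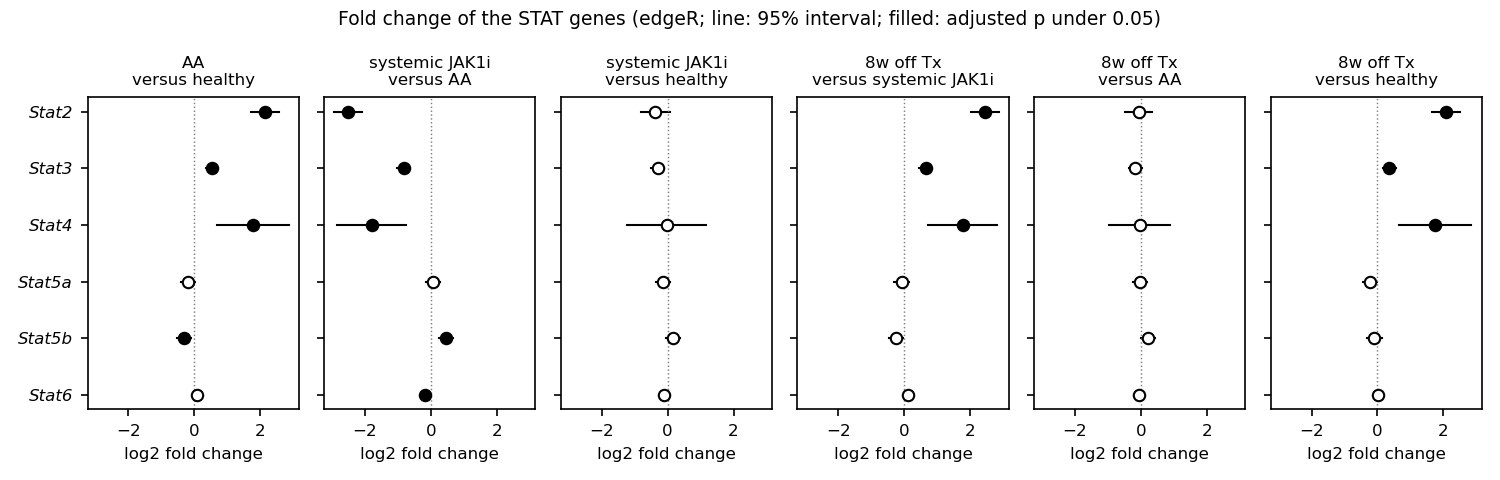
Log2 fold change of each STAT gene (x axis) in the 6 comparisons (panels), with the 95% interval as a line and a filled point where the adjusted p was under 0.05. Stat2, Stat3 and Stat4 are filled to the right for AA against healthy and for 8w off Tx against systemic JAK1i or healthy and to the left for systemic JAK1i against AA, and both panels of systemic JAK1i against healthy and 8w off Tx against AA hold open points only. On uncentred TPM the sign turned in 4 of the 6 panels for Stat3 and in 5 for Stat6, called or not.

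Upstream of the STATs are the 4 JAK kinases. None was called between AA and healthy skin by edgeR, DESeq2 or limma-voom, nor was any at an unadjusted p under 0.05. By edgeR 40.2% of all genes were called in that comparison. Jak1, the target of the compound and the most abundant by CPM, averaged 283 ± 17.2 CPM in healthy skin, 262 ± 28.2 in AA, 280 ± 14.6 with systemic JAK1i and 255 ± 30.3 at 8w off Tx (SD, n = 6), and was called by edgeR in none of the 6 comparisons. Limma-voom called 1 of the 4 kinases lower at 8w off Tx than with systemic JAK1i, and 1 lower than in healthy skin. The edgeR fit without 8w off Tx libraries A and E did the same. In the main fit Jak1 had the lowest log2 fold change of the kinases in these comparisons, at -0.135 and -0.154. Jak3, the kinase of the common gamma chain receptors of lymphocytes, was lower with systemic JAK1i than in AA (log2 fold change -0.77 ± 0.20, adjusted p = 0.00277) and higher at 8w off Tx than with systemic JAK1i (1.01 ± 0.20, adjusted p = 0.000397) or in healthy skin (0.60 ± 0.20, adjusted p = 0.0229). Tyk2, which serves interferon and interleukin-12 receptors, was higher at 8w off Tx than with systemic JAK1i as well (0.26 ± 0.08, adjusted p = 0.0169).

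The receptors coupled to STAT2 gave few calls. Of 4 interferon receptor genes, 1 was called in AA, Ifnlr1 (the type III interferon receptor), which was lower (log2 fold change -0.42 ± 0.15, adjusted p = 0.0296). That call was lost without healthy libraries A and E. Over all genes 20.9% were called higher and 19.3% lower in AA, so 1 of 4 was near the share of all genes. None was called between systemic JAK1i and AA by edgeR, DESeq2 or limma-voom or at an unadjusted p under 0.05, and the same held for 8w off Tx against systemic JAK1i. By edgeR 47.7% of all genes were called in the first of these comparisons and 35.9% in the second. Ifnar1, a chain of the type I receptor, averaged 62.1 ± 5.98 CPM in healthy skin and 60.1 ± 9.99 in AA.

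Of 13 receptors coupled to STAT3, 4 were higher and 5 lower in AA, where 20.9% of all genes were called higher and 19.3% lower. Il6st, the shared signalling chain gp130, was lower in AA (-0.59 ± 0.08, adjusted p = 8.82e-06) and higher with systemic JAK1i than in AA (0.51 ± 0.08, adjusted p = 3.33e-05), whereas Stat3 went the other way in both. Il21r, the interleukin-21 receptor of lymphocytes, was higher in AA (3.06 ± 0.59, adjusted p = 0.000136).

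Of the receptors coupled to STAT4, both genes tested of the 3 listed were called in AA, 1 higher and 1 lower. The shares of all genes were 20.9% higher and 19.3% lower. Il12rb1, shared by the interleukin-12 and interleukin-23 receptors, rose from a mean of 1.21 ± 0.67 CPM in healthy skin to 6.48 ± 3.17 in AA (adjusted p = 0.000214), while Il12rb2, specific to the interleukin-12 receptor, fell from 67.9 ± 16.3 to 26.8 ± 7.96 CPM (adjusted p = 9.04e-05). With systemic JAK1i the signs were opposite, with a log2 fold change against AA of -3.18 ± 0.50 for Il12rb1 and 0.75 ± 0.23 for Il12rb2.

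Of 11 tested receptors coupled to STAT5, 3 were higher and 2 lower in AA, shares near the 20.9% and 19.3% of all genes. Il2rb, a chain of the interleukin-2 and interleukin-15 receptors, averaged 10.2 ± 2.49 CPM in healthy skin, 22.5 ± 7.25 in AA, 3.5 ± 1.09 with systemic JAK1i and 17 ± 6.29 at 8w off Tx. It was also called lower with systemic JAK1i than in healthy skin, where 0.535% of all genes were called lower. Without healthy libraries A and E it was not called in that comparison. Prlr, the prolactin receptor, averaged 121 ± 25 CPM in healthy skin, 30.3 ± 14.4 in AA, 122 ± 22.2 with systemic JAK1i and 47.4 ± 20.5 at 8w off Tx. Ghr, the growth hormone receptor, was lower in AA (-0.78 ± 0.20, adjusted p = 0.00308) and higher with systemic JAK1i than in AA (1.04 ± 0.20, adjusted p = 0.000174), the same directions as Stat5b in these 2 comparisons. Among the receptors coupled to STAT6, Il4ra, the signalling chain for interleukin-4 and interleukin-13, was higher in AA (1.29 ± 0.26, adjusted p = 0.000455) and lower with systemic JAK1i than in AA (-1.58 ± 0.26, adjusted p = 4.75e-05). It was 1 of 3 genes called in AA, beside 20.9% of all genes called higher and 19.3% lower, and Stat6 itself was not called.

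**Figure D4:**
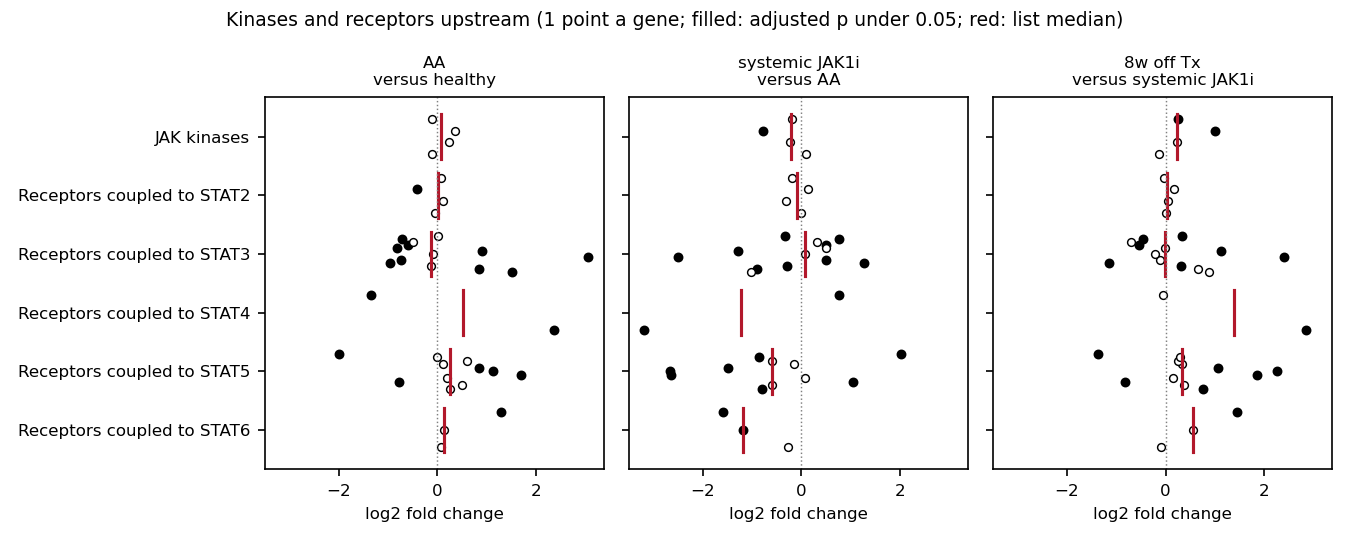
Log2 fold change (x axis) of the JAK kinases and of the receptors listed for each STAT (rows, 1 point a gene, filled where the adjusted p was under 0.05, red line at the list median) in 3 comparisons. The kinases and the STAT2 receptors lie between -0.77 and 1.01, both ends being Jak3, while the STAT3 and STAT5 receptor rows hold filled points on both sides. The STAT4 row does so too, except for 8w off Tx against systemic JAK1i, where only Il12rb1 is filled.

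Downstream, the partners and targets of STAT2 were the most uniform list. All 18 genes were higher in AA than in healthy skin (from 1.09 to 4.17 on the log2 scale, median 2.73), all 18 lower with systemic JAK1i than in AA (median -3.54), all 18 higher at 8w off Tx than with systemic JAK1i (median 3.35), and all 18 higher at 8w off Tx than in healthy skin (median 2.64). The shares of all genes called in those directions were 20.9%, 24.8%, 19.4% and 16.9%, in that order. The list was chosen with earlier results of these data known, so its uniformity is a description and no test. Oas3, an antiviral oligoadenylate synthetase, averaged 4.4 ± 0.882 CPM in healthy skin, 80.5 ± 32.6 in AA, 2.96 ± 0.916 with systemic JAK1i and 66.9 ± 32.3 at 8w off Tx. Oas2 of the same family averaged 11.2 ± 3.27, 98.2 ± 27.2, 4.25 ± 1.49 and 83.9 ± 43.1 CPM in that order. Ifih1, the double-stranded RNA sensor and the most abundant of the list by CPM, averaged 64.1 ± 7.43 CPM in healthy skin and 154 ± 36.6 in AA.

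Between systemic JAK1i and healthy skin none of the 18 was called by edgeR, although 10 had an unadjusted p under 0.05 and 16 had a negative log2 fold change, with a median of -0.75 beside -0.01 for all genes. DESeq2 called 7 of them lower, and limma-voom 1. The share of false calls of the tools was not tested for this comparison. Between 8w off Tx and AA none was called by any of the 3 tools, and none had an unadjusted p under 0.05.

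Of the listed targets of STAT3, 6 of 16 tested were higher and none lower in AA (median log2 fold change 0.75), and 11 were lower with systemic JAK1i than in AA (median -0.91). Among all genes 20.9% were called higher and 19.3% lower in AA, and 24.8% lower with systemic JAK1i. The list's median in AA was the same with Saa3, which had no read in healthy skin, set at the bound that 3 counts over the group allow. Timp1, a metalloprotease inhibitor, was higher in AA (3.64 ± 0.71, adjusted p = 0.000215), as was Junb, an AP-1 subunit (0.95 ± 0.21, adjusted p = 0.00116). Mcl1, a survival factor and the most abundant of the list by CPM, was not called, at 256 ± 15.8 CPM in healthy skin and 270 ± 23.8 in AA.

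Of 7 targets of STAT4, 4 were higher and 1 lower in AA, and 5 were lower and 1 higher with systemic JAK1i than in AA. The shares of all genes were 20.9% higher and 19.3% lower in AA, and 24.8% lower and 22.9% higher with systemic JAK1i. Furin, a proprotein convertase, was higher in AA (0.81 ± 0.13, adjusted p = 3.88e-05). Tbx21, the T-bet factor of type 1 lymphocytes, was scarce, at 0 to 0.711 CPM in healthy skin and 0.245 to 5.43 CPM in AA (adjusted p = 0.00226).

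Of 11 tested targets of STAT5, 2 were higher and 2 lower in AA, shares near the 20.9% and 19.3% of all genes, and the list's median was -0.05 on the log2 scale. The anti-apoptotic Bcl2 was lower in AA (-0.49 ± 0.14, adjusted p = 0.00856) and Il2ra, the interleukin-2 receptor alpha chain, was higher (1.70 ± 0.38, adjusted p = 0.00108). Of 12 tested targets of STAT6, 6 were higher and 3 lower in AA, beside the same shares of all genes. The T-cell-attracting chemokine Ccl22 averaged 6.67 ± 1.4 CPM in healthy skin and 19.8 ± 7.86 in AA (adjusted p = 4.88e-05), and with systemic JAK1i it averaged 6.33 ± 2.2. At 8w off Tx it averaged 9.3 ± 2.01 CPM. It was 1 of 2 targets of STAT6 called against AA, being lower. The other, Gata3, a factor of type 2 lymphocytes that hair follicles also express, was higher. Of all genes 0.726% were called higher and 0.64% lower in that comparison. Neither target was called without 8w off Tx libraries A and E or with the replicate letter as a block.

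Feedback inhibitors of the SOCS family bind JAKs and receptors to end the signal. In AA, Socs1, Socs3 and Socs5 were higher and none of the 8 was lower, where 20.9% of all genes were called higher and 19.3% lower. Socs3 averaged 24.5 ± 2.72 CPM in healthy skin, 39.1 ± 11.1 in AA, 16.9 ± 5.68 with systemic JAK1i and 32.2 ± 8.85 at 8w off Tx. Socs1 averaged 5.45 ± 0.812, 12.7 ± 5.41, 3.95 ± 1.63 and 9.39 ± 5.11 CPM in that order. With systemic JAK1i, Socs1, Socs3, Socs5 and Cish were lower than in AA, and Socs6 and Socs7 were higher (0.33 ± 0.10 and 0.32 ± 0.09, adjusted p = 0.00869 and 0.00423). In that comparison 24.8% of all genes were called lower and 22.9% higher. Among 10 other negative regulators, 3 were higher and 2 lower in AA, again near the 20.9% and 19.3% of all genes. Usp18, which blocks interferon receptor signalling and is itself a STAT2 target, was higher (1.52 ± 0.26, adjusted p = 9.46e-05), as was the phosphatase Ptpn1 (0.69 ± 0.12, adjusted p = 0.000116).

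**Figure D5:**
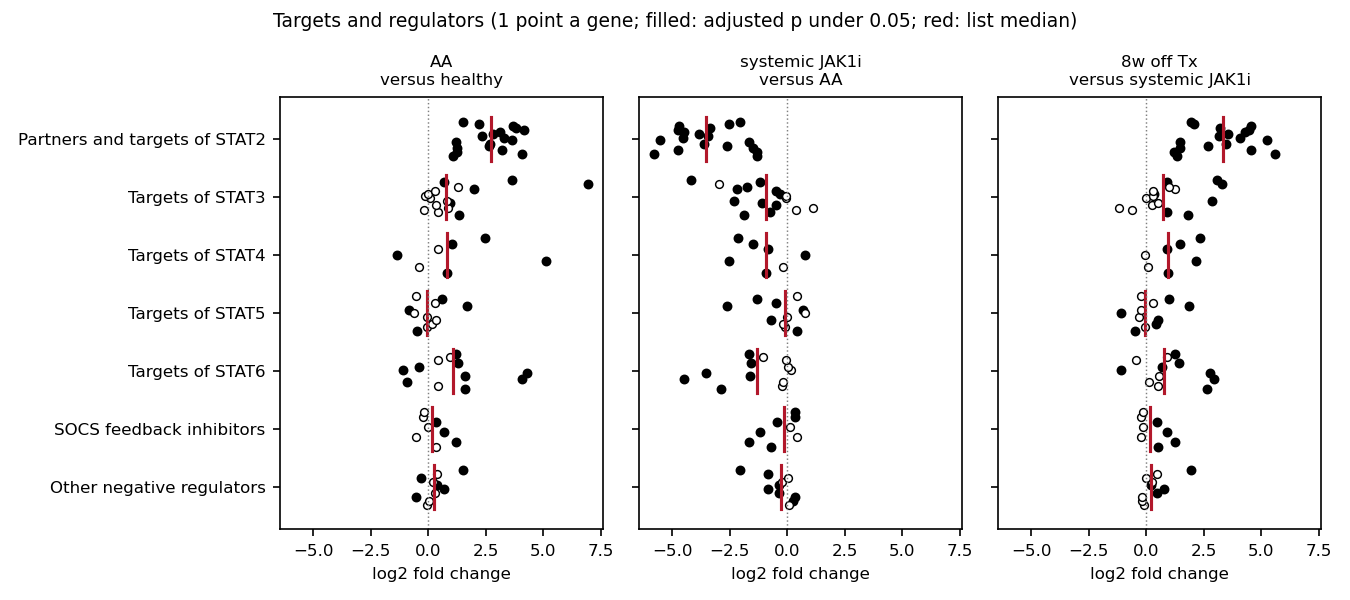
Log2 fold change (x axis) of the listed targets and negative regulators (rows, 1 point a gene, filled where the adjusted p was under 0.05, red line at the list median) in 3 comparisons. All 18 points of the STAT2 row are filled and on one side in each panel, with medians of 2.73, -3.54 and 3.35, whereas the STAT5 row lies on both sides of 0.

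Genes most like each member were found by Pearson's r of log2 CPM over the 24 libraries, given as a description, since group differences drive much of it; the r after group means were subtracted follows in brackets. Libraries share their depth and cell content, so these values carry no test. For Stat2 the closest were Oas3 at 0.99 (0.92), Adar, the interferon-induced RNA-editing enzyme, at 0.99 (0.94), Oasl2 at 0.99 (0.92) and the paralogues Apol9b and Apol9a. For Stat3 they were Tpm3, H2afx, Isg15, Ckap4 and Ifitm3, from 0.95 to 0.96. For Stat4 they were the adhesion molecule Icam1 at 0.91 (0.84), the integrin Itgax at 0.91 (0.84), the lymphocyte activation marker Cd69, Lair1 and Psmb8.

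Stat5b was closest to Svil at 0.91 (0.81), Ctnna3, Ppp1r12b, Sgcd and Sord. Stat6 was closest to Bach1 at 0.88 (0.81), Tmem50b, Tnfrsf1a, Pgam1 and Diaph1. Stat5a had no close companion, with Tmem44 first at 0.75 (0.74), then Pkn3, Gm16060, Gm10232 and Dglucy. Among the members themselves, Stat2 and Stat3 were most alike at 0.93 (0.78), and Stat5b was opposed to both, at -0.70 (-0.52) with Stat2 and -0.75 (-0.45) with Stat3. Stat5a and Stat5b, though neighbours and paralogues, reached 0.38 (0.34).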

How the data were processed

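Whole-skin RNA was prepared with ribosomal depletion and sequenced as 2 x 76 base reads. Per the labels the authors mapped reads to mm10 (GRCm38) with HISAT2 2.0.1 and counted them with featureCounts 1.4.4. The deposited count table holds raw counts per gene, and the deposited TPM table holds TPM (length-scaled and depth-scaled abundance) per gene, and no source used here says how the latter were quantified. Each of these files also held 6 columns that matched no sample, and none was used. Of 39017 identifiers 37607 had a GENCODE M21 symbol.

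Counts were filtered (filterByExpr, minimum count 10), scaled by TMM and tested over all 24 libraries with edgeR 4.0.16 (quasi-likelihood, no block, R 4.3.3) for 16248 genes, with Benjamini-Hochberg adjustment and calls under 0.05. SE were computed from the fitted weights and the moderated quasi-dispersion, and log2 CPM for correlations used a prior count of 2. The labels number the libraries of a group as replicates without naming animals, so p-values measure the spread between these samples. TPM served for shares between genes and, as log2(TPM + 0.1) or log2(TPM + 1) with limma 3.58.1, as alternatives, besides DESeq2 1.42.0, limma-voom, other scalings and filters, and leaving out libraries, including healthy A and E and 8w off Tx A and E, known from earlier results to stand apart. The tests were tried on simulated data first, where, for AA against healthy, the share of false calls was above the threshold with DESeq2 and below it with edgeR. Those counts were drawn with the spread that edgeR had estimated, so they cannot rank the tools on the real data.

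The members and all lists were chosen with earlier results of these data known. From a pathway list, the text names called genes (the 2 of smallest adjusted p in a comparison) and the one of highest mean CPM, as well as JAK and SOCS genes and, for each STAT, the 5 genes of highest r. Saa3 was named after its values were seen. Promoter sequences are from RefSeq on GRCm38.p6. Depth was 3444193 to 11233020 counted reads per library. Protein sequences were not used here. Whether same-lettered libraries pair was checked by correlating their deviations from group means, and these correlations could not decide it.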

Additional observations from a re-analysis of the deposited data

Results flagged for a closer look

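Of 24 sets of 6 libraries (6 genes in 4 groups), 2 held a library far from the others by Dixon's ratio, and chance flags about 1 in 20 such sets. Stat4 in systemic JAK1i library A was at 1.95 CPM, against 0.428 to 0.899 CPM in the other 5 libraries. Stat6 in 8w off Tx library F was at 138 CPM, against 116 to 124 CPM in the other 5 libraries.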

How the results depend on the processing

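Stat2 kept its direction and its call under every alternative tried in the 4 comparisons that called it. With 1 library left out, its log2 fold change ranged from 2.07 to 2.27 (AA against healthy), -2.64 to -2.45 (systemic JAK1i against AA), 2.32 to 2.60 (8w off Tx against systemic JAK1i) and 1.95 to 2.21 (8w off Tx against healthy). Stat4 ranged from 1.39 to 2.08 in the first of these, and its counts of 2 to 33 reads limit its precision. The strict filter did not keep it. Uncentred TPM changed the most, and the cause was not tested. With a pseudocount of 0.1, the median log2 fold change of all genes lay between -1.16 and 0.65 over the comparisons. With TPM centred on library medians it lay between -0.03 and 0.04, and no STAT gene lost its call or reversed. On uncentred TPM with a pseudocount of 0.1, of 1, and of 0.1 with no filter, 1 STAT gene (Stat2) was called in AA against healthy in place of 4. With 0.1, filtered or not, 3 in place of 5 were called in systemic JAK1i against AA. Those 3 were Stat2, Stat5b and Stat5a, which was gained (0.756, adjusted p = 0.0213), while Stat3, Stat4 and Stat6 lost their calls. In those 3 settings, in that order, Stat3 reversed to 0.035, 0.032 and 0.035 in systemic JAK1i against AA, to -0.469, -0.456 and -0.469 in 8w off Tx against systemic JAK1i and to -0.308, -0.299 and -0.308 in 8w off Tx against healthy. Stat6 reversed to 0.325, 0.305 and 0.325, to -0.966, -0.898 and -0.966 and to -0.83, -0.769 and -0.83 in the same comparisons, and was called lower in the last 2 (adjusted p = 0.000875 and 0.00564 with 0.1). Stat5a and Stat5b were called lower there in all 3 settings (with 0.1, -1.225 and -1.533 against systemic JAK1i, adjusted p = 0.000267 and 4e-05, and -1.103 and -1.026 against healthy, 0.0019 and 0.00284), and Stat4 lost its call (0.255 and 0.265). In systemic JAK1i against healthy, limma-voom and the fit of the 2 groups alone each called 1 gene, Stat3, in place of 0. Stat5b in AA against healthy was lost without AA library B, AA library F or healthy library F (-0.365 to -0.238 over the libraries left out). Stat6 in systemic JAK1i against AA was lost without AA library E (adjusted p = 0.0555), with upper-quartile scaling (0.0557) and with no filter (0.0754). Stat5b in 8w off Tx against systemic JAK1i was gained without 8w off Tx library A (adjusted p = 0.0304) or A and E (0.0176), with limma-voom (0.00754) and on centred TPM (0.0361), besides uncentred TPM above, as was Stat5a in AA against healthy on centred TPM (-0.366, adjusted p = 0.024). With the replicate letter as a block, 4, 5, 0, 3, 0 and 3 members were called, the counts of the fit without it. Same-lettered libraries correlated from -0.237 to 0.414, over 0.1 in 6 of 36 pairs and best with their own letter in 5. The letters were not taken to pair mice, but these correlations cannot exclude that they do. By the study's methods only systemic JAK1i and 8w off Tx libraries could share a mouse.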
